A study of Mus musculus with 8 samples.

Results

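The angiogenins are small secreted ribonucleases of the RNase A superfamily, and the gene family described here comprises 4 of them (Ang, Ang4, Ang5 and Ang6), their relatives Rnase1 and Rnase4, and Rnh1, which encodes the cytosolic inhibitor of these enzymes. These 7 genes were picked by symbol out of the 55414 gene IDs of the count table, through the GENCODE mouse annotation, a rule that uses no expression value. The symbols themselves were chosen with earlier results of these data known. Read counts came from Paneth cells sorted out of the small intestine of C57BL/6J mice, the strain given for both groups. The 4 water mice drank ultrapure (Milli-Q) water for 7 days, and the 4 zinc mice drank ultrapure water with 25 mM zinc sulphate for the same 7 days. Each mouse gave 1 library. The labels give neither age nor sex, and bulk RNA of a sorted population cannot tell fewer cells of a type from less RNA per cell.

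Paneth cells lie at the base of the small intestinal crypts and release granules filled with antimicrobial proteins (AMPs). Ang4 is known as an AMP of mouse Paneth cells, whereas angiogenins elsewhere enter cells, promote the growth of vessels and cut tRNA within the anticodon loop. Rnh1 is a leucine-rich repeat protein that binds RNase A type enzymes very tightly, which shields the RNA of the cytosol from ribonuclease that leaks in. The comparison of zinc with water asks whether any of these levels moved with the zinc supply.

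Ang4, Ang5 and Ang6 have closely similar upstream sequences although their levels were far apart, which is why those sequences are shown. The 250 bases before the RefSeq start of Ang4 (GRCm39 chr14:52011048-52011297, minus strand) and of Ang5 (chr14:44194276-44194525, plus strand) are written 5′ to 3′, and capitals mark the bases that differ between them or face a gap in their alignment. The third line gives the same stretch before the shared start of Ang and Rnase4 (chr14:51328284-51328533, plus strand), without capitals. RefSeq windows were found for all 7 genes, with 2 windows for Rnase4 and 3 for Rnh1, and each matched GRCm39 at 1 place.
Ang4: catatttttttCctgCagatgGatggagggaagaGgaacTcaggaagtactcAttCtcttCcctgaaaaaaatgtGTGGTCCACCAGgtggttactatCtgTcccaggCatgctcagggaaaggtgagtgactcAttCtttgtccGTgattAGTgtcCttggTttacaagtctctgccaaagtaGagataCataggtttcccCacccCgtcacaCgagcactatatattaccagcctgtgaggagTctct
Ang5: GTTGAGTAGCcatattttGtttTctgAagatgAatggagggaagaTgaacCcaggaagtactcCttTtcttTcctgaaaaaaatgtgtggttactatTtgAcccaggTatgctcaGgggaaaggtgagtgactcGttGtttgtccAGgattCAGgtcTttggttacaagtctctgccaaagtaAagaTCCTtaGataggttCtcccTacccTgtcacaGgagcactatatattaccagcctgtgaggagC
Ang and Rnase4: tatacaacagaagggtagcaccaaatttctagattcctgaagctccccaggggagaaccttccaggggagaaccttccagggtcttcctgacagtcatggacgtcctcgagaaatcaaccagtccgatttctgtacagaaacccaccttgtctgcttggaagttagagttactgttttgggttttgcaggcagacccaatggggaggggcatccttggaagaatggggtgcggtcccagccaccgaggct

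Over the whole RefSeq windows of 300 bases (the first listed for each gene), which run to 50 bases past the start, Ang5 and Ang6 were identical, and Ang4 matched Ang5 at 254 of 283 aligned bases (89.8%, 34 gap columns). Ang4 and Ang aligned at 55.1% identity. The letters TATATA, searched on both strands, began at -29 from the start of Ang4 and at -25 from the starts of Ang5 and Ang6. They were also present in the second windows of Rnase4 (at -90) and Rnh1, but not in the other windows of these genes or in those of Ang and Rnase1, and 5.67% of the 32851 promoter windows in the RefSeq table held them. The STAT-type letters TTCNNNGAA were present at -192 in Ang4 and at -56 in Rnase1, against 8.30% of all windows, and 1 of the capitals of Ang4 falls inside its match. The core letters TGCGCNC of metal response elements were in no window of the 7 genes (15.4% of all windows held them), and TGCACNC was present in the window that Ang and Rnase4 share, at 23 bases past the start (12.6% of all windows). These matches describe letters only.

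The coding sequences of the 4 angiogenins were 84.1% to 90.8% identical in pairwise alignments, and those of Ang4 and Rnase1 or Rnase4 61.6% identical. The stretch of 75 coding bases around the ribonuclease signature, which holds a catalytic lysine of the family, is printed for the 6 ribonucleases because it shows how far reads from one gene could be told from those of another. Capitals mark bases that differ from Ang4.
Ang4, chr14:52001719-52001793, minus strand: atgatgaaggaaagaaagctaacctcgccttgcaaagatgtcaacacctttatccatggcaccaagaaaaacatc
Ang, chr14:51339017-51339091, plus strand: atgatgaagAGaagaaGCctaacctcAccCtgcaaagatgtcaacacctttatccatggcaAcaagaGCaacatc
Ang5, chr14:44200094-44200168, plus strand: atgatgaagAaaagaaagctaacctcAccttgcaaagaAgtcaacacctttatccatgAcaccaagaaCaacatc
Ang6, chr14:44239490-44239564, minus strand: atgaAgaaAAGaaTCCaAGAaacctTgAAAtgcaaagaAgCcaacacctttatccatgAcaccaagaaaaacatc
Rnase4, chr14:51342449-51342523, plus strand: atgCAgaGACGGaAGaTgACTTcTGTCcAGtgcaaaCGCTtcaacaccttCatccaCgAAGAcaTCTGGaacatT
Rnase1, chr14:51383116-51383190, minus strand: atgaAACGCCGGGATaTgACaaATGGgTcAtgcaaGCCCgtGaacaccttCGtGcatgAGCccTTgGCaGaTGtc

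From Ang4, Ang differed at 9 of these 75 bases, Ang5 at 5, Ang6 at 17, Rnase4 at 36 and Rnase1 at 38. Across annotated transcripts, 99.1% of the windows of 75 bases in Ang4 occurred in no other gene. The same share was 95.9% for Ang5, 96.7% for Ang6 and 99.9% for Rnh1, and Rnase1 shared no window. It was 68.3% for Ang and 55.6% for Rnase4, which overlap each other.

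Library totals ran from 20760764 to 24117111 counts. Scaling factors of the trimmed mean of M-values (TMM), which set libraries to a common level over most genes, were 0.764 and 0.775 in replicate 1 of the water and zinc groups. They were 1.02 and 0.998 in replicate 2, 1.07 and 1.05 in replicate 3, and 1.21 and 1.23 in replicate 4. The coding Defa share of counts was, in the same order, 39.8% and 38.5%, 33.9% and 34.0%, 33.2% and 33.1%, and 29.2% and 27.9%. CPM values, counts set to a common library total, are on the TMM scale below, and shares are percentages of a library's total count. The Paneth cell markers (Lyz1, Defa24, Defa30, Itln1, Mmp7, Mptx2 and Sox9) summed to 40.7% to 52.9% of counts. Sums of goblet cell markers were 8664 to 14863 CPM, of enterocyte markers 187 to 255 CPM and of myeloid markers 14.2 to 35.3 CPM. Lyz2 made up most of the myeloid sum in every library, with 34.5 CPM in water replicate 1, where the sum was highest. The other myeloid markers each stayed at or below 1.22 CPM.

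Ang4 (ENSMUSG00000060615, GRCm39 chromosome 14, 51990721 to 52011053, minus strand) was by far the most abundant of the 7 genes. Its share of the total was 1.40%, 1.27%, 1.16% and 1.49% in the water libraries, in the order of replicates 1 to 4, and 1.56%, 1.25%, 1.24% and 1.14% in the zinc libraries. The mean was 1.33% ± 0.142 in the water group and 1.30% ± 0.185 in the zinc group (SD, n = 4 each, as throughout), and it ranked 8th among all genes by share. Counting error was small beside this, since the Wilson 95% interval of the highest share ran from 1.558% to 1.568%. Goblet cells are also known to make Ang4, and the part of the goblet cell markers above in its level was not tested. The zinc libraries held both the highest and the lowest share, so that the groups overlapped. For comparison, Ang4 counts amounted to 8.69% ± 1.13 of those of the lysozyme gene Lyz1 with water and to 8.25% ± 0.671 with zinc.

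Per length, the order of levels was the same in all 8 libraries down to Rnh1. TPM, a level per length made from counts over merged exon length and set to the same sum in every library, averaged 7194 for Ang4, which ranked 12th among all genes. Rnase1, named the pancreatic-type ribonuclease, averaged 652 TPM, Rnase4, a ribonuclease that prefers to cut after uridine, 228 TPM, Ang 26.7 TPM and the inhibitor Rnh1 14.4 TPM. Between neighbours in this order, Ang4 was 11.0 times Rnase1 in mean TPM, Rnase1 2.87 times Rnase4, Rnase4 8.52 times Ang, and Ang 1.85 times Rnh1, and none of these ranges over 8 libraries overlapped. The sizes of these steps depended on the length used, and the last one changed direction. With the length of the transcript tagged as canonical in place of merged exons, a choice made after seeing the data, Ang stood at 0.675 ± 0.154 of Rnh1 (SD over 8 libraries) and below it in every library. With that length Ang4 was 29.7 ± 9.40 times Rnase1, against 12.0 ± 3.81 times with merged exons (means of the ratios in 8 libraries). The steps from Rnase1 to Rnase4 and from Rnase4 to Ang moved by less than the spread between libraries, and these 3 steps kept their direction in all 8 libraries. Both lengths include exon sequence that Ang and Rnase4 share, as described below. How the counting of reads in that sequence affects the step from Rnase4 to Ang was not tested.

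**Figure D1:**
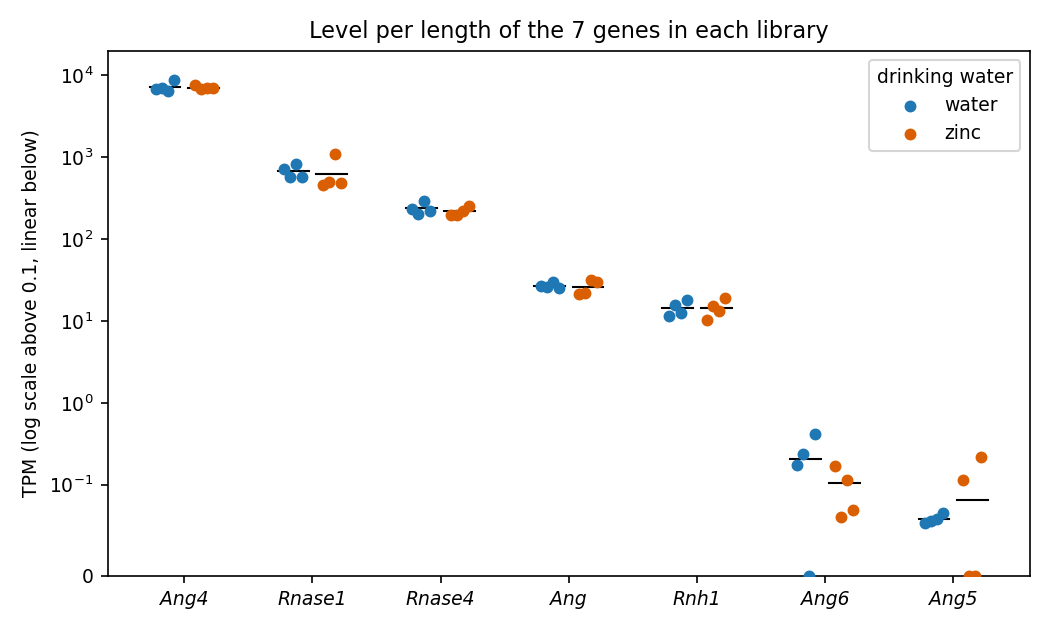
Level per length of the 7 genes in each library. Each point is 1 library of the water (blue) or zinc (orange) group, the bars are group means, and the vertical axis is in TPM on a log scale above 0.1 and linear below. The genes lie in separate bands from Ang4 (mean 7194 TPM) to Rnh1 (14.4 TPM), and only Ang6 and Ang5 at the bottom overlap.

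Ang5 and Ang6, whose promoter windows are closest to that of Ang4 among these genes, were at the limit of detection. Ang5 (ENSMUSG00000053961, 44194526 to 44200537, plus strand) had 1 count in each water library and 2, 0, 0 and 3 counts in zinc replicates 1 to 4. Ang6 (ENSMUSG00000072598, 44239121 to 44243875, minus strand) had 3, 4, 0 and 6 counts with water and 3, 1, 2 and 1 with zinc. Where a library had 0 counts, the upper limit was set at 3 counts. This corresponded to 0.145 and 0.119 CPM for Ang5 in zinc replicates 2 and 3, and to 0.127 CPM for Ang6 in water replicate 3. Neither gene passed the filter on low counts, so that neither was tested and no fold change is given. Between them, Ang6 was higher in 6 of the 8 libraries in TPM, but their ranges overlapped.

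Ang (ENSMUSG00000072115, 51328534 to 51341074, plus strand) and Rnase4 (ENSMUSG00000021876, 51328534 to 51343608, plus strand) start at the same base, and their annotated transcripts share 5′ exons that are spliced to separate coding exons. The shared exon sequence came to 1387 bases, 35.4% of the 3919 exon bases of Ang and 49.4% of the 2805 of Rnase4, with 0 coding bases in common. Reads that lie wholly inside those exons cannot be assigned to 1 of the genes by sequence, nor by strand since both run the same way. The sources used here do not say how the authors' counting treated them.

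**Figure D2:**
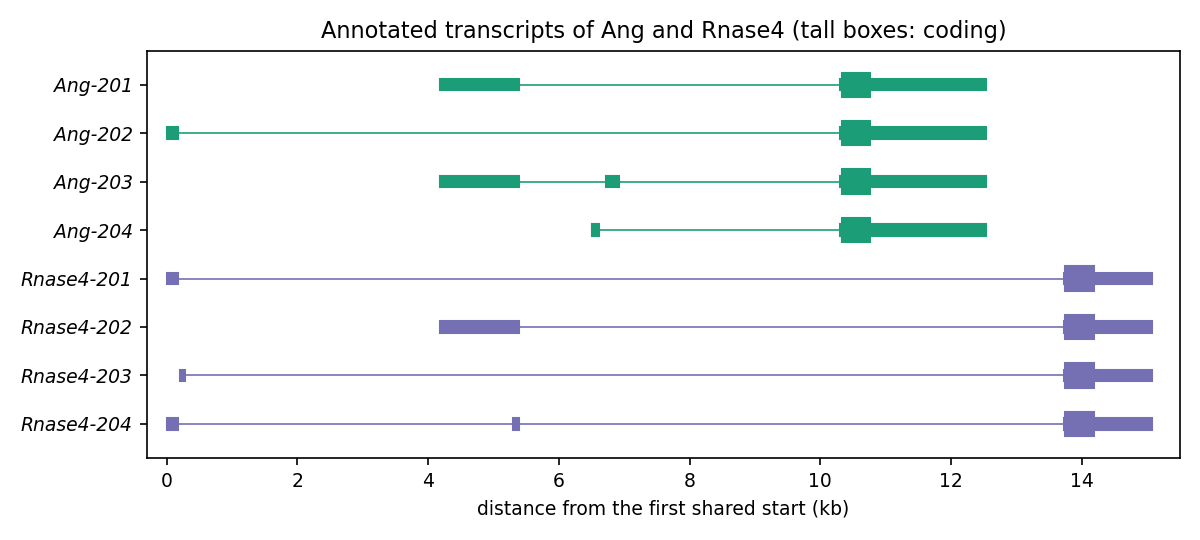
Annotated transcripts of Ang (green) and Rnase4 (purple), plotted as distance in kb from their first shared start. Low boxes are exons, tall boxes coding sequence and thin lines introns, and the 5′ exons that begin at distance 0 and at 4187 bases occur in transcripts of both genes while the coding boxes do not overlap.

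Ang reached 161, 103, 112 and 78.4 CPM in water replicates 1 to 4 and 126, 91.3, 120 and 87.5 CPM in zinc replicates 1 to 4. Rnase4 reached 990, 582, 792 and 480 CPM with water and 812, 579, 603 and 539 CPM with zinc. For both genes replicate 1 was the highest water library and replicate 4 the lowest, and the zinc values lay inside the range of the water values. The ratio of Rnase4 to Ang in TPM averaged 8.73 ± 0.845 in the water libraries and 8.38 ± 0.923 in the zinc libraries, and it ran from 7.02 in zinc replicate 3 to 9.90 in water replicate 3.

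Rnase1 (ENSMUSG00000035896, 51382455 to 51384247, minus strand) was the most variable of the tested genes. It reached 1092, 587, 799 and 444 CPM in water replicates 1 to 4 and 678, 516, 1040 and 359 CPM in zinc replicates 1 to 4. Its biological coefficient of variation stood at the 89.3 percentile of all genes tested. The zinc libraries held the lowest value, and zinc replicate 3 the second highest. As a share of counts, zinc replicate 3 stood apart from its group, at 0.109% against 0.0440% to 0.0525% in the other 3 zinc libraries. The ratio of Rnase1 to Rnase4 in TPM was 2.60 to 3.10 in the 4 water libraries, and with zinc it was 2.35, 2.51, 4.86 and 1.88 in replicates 1 to 4. Zinc replicate 3 also had the highest share of mitochondrially encoded counts, 1.93% against 0.920% to 1.59% in the other 7 libraries, whose part in the Rnase1 value was not tested.

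Since Rnase1 is a product of pancreatic acinar and endothelial cells as well, their markers were examined. Of 7 acinar markers, Prss2, Cela2a, Pnlip and Cel had 0 counts in all libraries and 6 in all stayed under 10 counts in every library. The colipase gene Clps was the exception, with 4143 ± 1438 CPM with water and 4107 ± 1229 CPM with zinc, and it made up nearly all of the list's summed level of 2601 to 6249 CPM. Of 5 endothelial markers, Cdh5 and Kdr had 0 counts in all libraries and the list summed to 0.381 to 0.713 CPM.

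Rnh1 (ENSMUSG00000038650, GRCm39 chromosome 7, 140740235 to 140752775, minus strand) had the lowest biological coefficient of variation of the 5 tested genes, with TMM scaling. This value stood at the 23.8 percentile of all genes. The ranking depended on the scale. As a share of counts Rnh1 spanned 1.48-fold, more than Ang (1.38), Ang4 (1.38) and Rnase4 (1.46) but less than Rnase1 (2.48). In TPM Rnh1 spanned 1.86-fold, against 1.47 for Ang, 1.38 for Ang4, 1.51 for Rnase4 and 2.36 for Rnase1. It reached 93.8, 86.1, 63.7 and 76.0 CPM in water replicates 1 to 4 and 81.9, 85.0, 68.9 and 76.7 CPM in zinc replicates 1 to 4. Replicate 3 was the lowest library of each group, and the zinc values lay inside the water range. Summed over the 6 ribonucleases, transcripts of the enzymes exceeded those of the inhibitor 581 ± 82.5 times in TPM with water and 585 ± 177 times with zinc. With the length of the canonical transcripts it was 413 ± 54.2 times with water and 419 ± 129 times with zinc, since the merged exons of Rnh1 are 5372 bases long and its canonical transcript 1662 bases. With merged exons the ratio was lowest in zinc replicate 4 (408) and highest in zinc replicate 1 (816). It is a ratio of transcripts, of which the ribonucleases are secreted and the inhibitor is cytosolic.

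**Figure D3:**
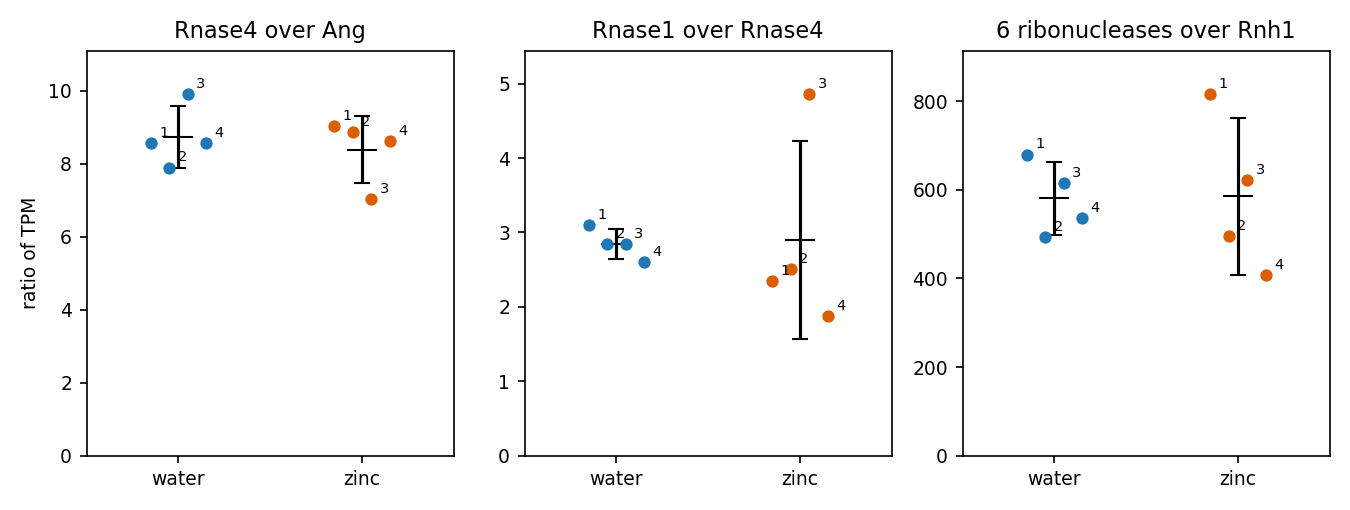
Ratios between the genes in each library. Points are libraries labelled with their replicate number, the wide tick and whiskers give the mean ± SD of 4 libraries, and the vertical axes, which start at 0, are ratios of TPM. Rnase4 over Ang lies between 7.02 and 9.90 in all libraries, whereas Rnase1 over Rnase4 is 4.86 in zinc replicate 3 and 1.88 to 3.10 elsewhere.

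Of the 5 genes that passed the filter, 0 passed the test of zinc against water (edgeR's quasi-likelihood test with Benjamini-Hochberg adjustment). Over all 11988 genes tested, 0.0834% were past the adjusted threshold of 0.05 (0.025% higher and 0.0584% lower with zinc), so that a count of 0 among 5 genes was near the background. The count was also 0 of 5 at an unadjusted p below 0.05, where 4.65% of all genes stood, and 0 of 5 by DESeq2 and by limma-voom. In none of the 5 did the CPM values of the groups separate, against 2.84% of all genes. The adjusted p of edgeR was 0.998 for each.

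The intervals show which changes these libraries could still hold. The log2 fold change of Rnh1, zinc over water, was -0.03 (SE 0.13, 95% interval -0.30 to 0.23), the narrowest of the 5. That of Ang4 was -0.01 (SE 0.27, interval -0.58 to 0.57), which as a fold runs from 0.668 to 1.48. Ang had -0.10 (SE 0.20, interval -0.53 to 0.33) and Rnase4 had -0.17 (SE 0.20, interval -0.60 to 0.27). Rnase1 had -0.17 (SE 0.38, interval -1.06 to 0.71), which as a fold runs from 0.481 to 1.64. The median of all genes tested was 0.01 with a median SE of 0.17. All 5 estimates turned positive without water replicate 1, to 0.17 for Ang4, 0.12 for Ang, 0.03 for Rnase4, 0.09 for Rnase1 and 0.05 for Rnh1. Without zinc replicate 3 that of Rnase1 was -0.50, and without zinc replicate 1 that of Ang4 was -0.27, none of them past the threshold. Water replicate 1 and zinc replicate 1 were alike in TMM factor and Defa share, so that leaving out 1 of them unbalances the groups. The intervals above treat the libraries as unpaired. With the replicate number as a block the SEs of all 5 were smaller, at 0.11 for Ang4 and 0.15 for Rnase1.

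**Figure D4:**
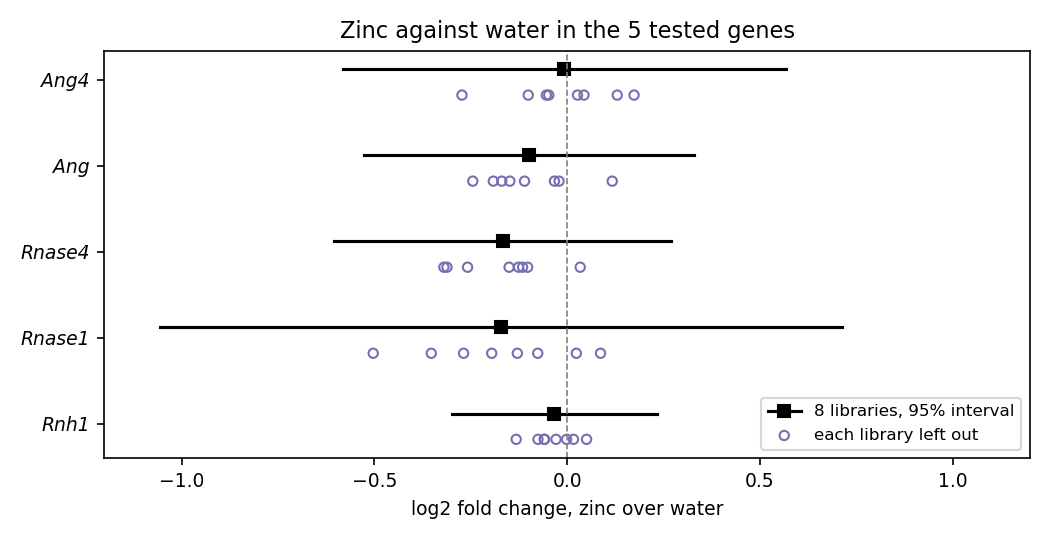
Zinc against water in the 5 tested genes. Squares are log2 fold changes over all 8 libraries with 95% intervals, and open circles are the estimates with each library left out in turn. All 5 intervals cross 0, from the narrow one of Rnh1 (-0.30 to 0.23) to the wide one of Rnase1 (-1.06 to 0.71).

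The summed share of the 6 ribonucleases averaged 1.48% ± 0.128 in the water group and 1.43% ± 0.184 in the zinc group (SD, n = 4 each). Ang4 supplied 89.7% ± 2.53 of those counts with water and 90.3% ± 2.39 with zinc. Both differences were smaller than the spread between mice.

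How far libraries differed in Ang4 depended on the scale. The highest Ang4 level was 2.18 times the lowest in CPM with TMM scaling (18314, 12532, 10923 and 12272 CPM with water, 20190, 12507, 11822 and 9273 CPM with zinc) but 1.38 times as a share of counts. On the TMM scale the replicate 1 libraries, which had the lowest TMM factors and the highest share of Defa counts, were the highest of each group. On the share scale water replicate 4 was the highest water library, at 1.49% against 1.40% in water replicate 1. Zinc replicate 1 was still the highest zinc library, at 1.56%.

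**Figure D5:**
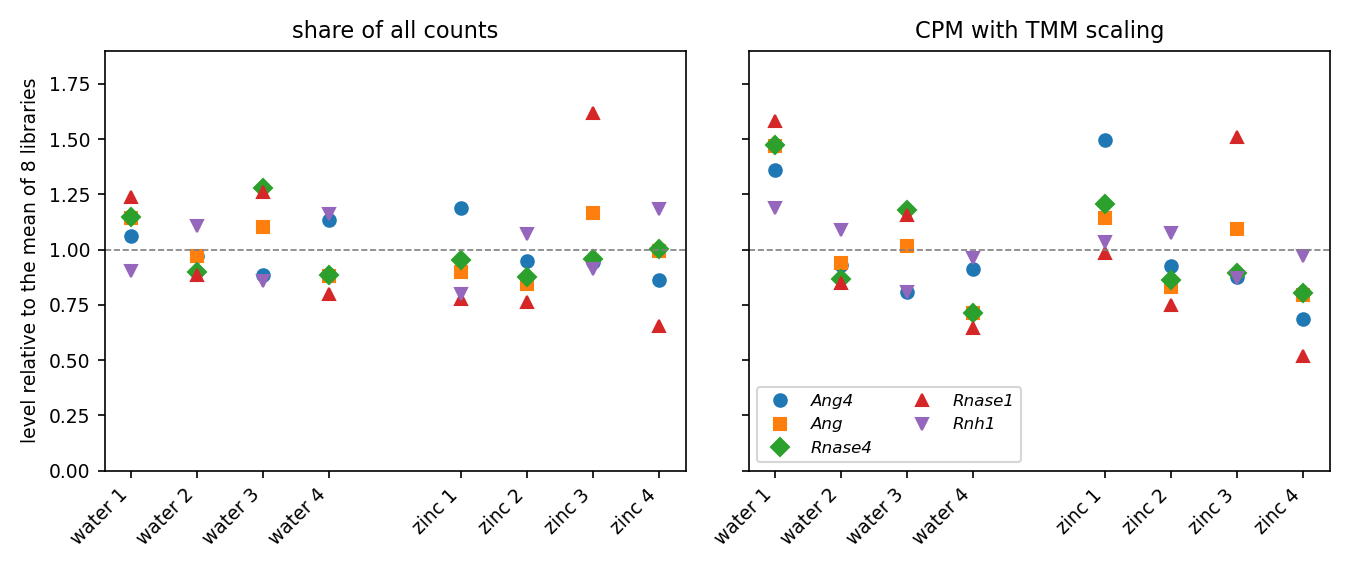
The 5 tested genes in each library as a share of all counts (left) and in CPM with TMM scaling (right), each divided by the gene's mean over 8 libraries. On the right most genes are high in replicate 1 of both groups and Ang4 spans 2.18-fold, whereas on the left Ang4 spans 1.38-fold and Rnase1 in zinc replicate 3 is the highest point.

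Across the 8 libraries, 10 pairs of the tested genes were compared in log2 CPM by exact permutation tests, two-sided and adjusted over the 10 pairs. The permutations take the libraries as exchangeable. Same-numbered libraries were alike in TMM factor and Defa share, so that these p may be too small. Ang and Rnase4 had r = 0.91 (exact p = 0.0016, adjusted p = 0.016) and rho = 0.98 (adjusted exact p = 0.0040), and r = 0.74 without the 2 libraries farthest from the median of Ang. These genes share a start and exon sequence, as described above. Ang and Rnase1 had r = 0.88 (exact p = 0.0045, adjusted p = 0.022) and rho = 0.90 (adjusted exact p = 0.023), and r = 0.84 without the same 2 libraries. For Rnase1 and Rnase4 r was 0.73 (exact adjusted p = 0.14) and rho 0.88 (exact adjusted p = 0.024). The other 7 pairs did not pass the threshold.

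These relations did not hold on every scale. With library totals as the only scaling, r was 0.70 for Ang and Rnase4 (exact p = 0.053, adjusted p = 0.27), 0.84 for Ang and Rnase1 (exact p = 0.014, adjusted p = 0.14) and 0.51 for Rnase1 and Rnase4 (exact adjusted p = 0.40). For Ang and Ang4 r was 0.68 with TMM scaling (exact adjusted p = 0.14) and -0.36 with library totals (exact adjusted p = 0.53). Taken as deviations from the group means, on the TMM scale, r was 0.91 for Ang and Rnase4 and 0.88 for Ang and Rnase1. CPM on the TMM scale divides counts by the TMM factor, so that a negative r of log2 CPM with the log2 factor is partly built in. The r was -0.85 for Ang, -0.84 for Rnase4, -0.63 for Rnase1, -0.93 for Ang4 and -0.56 for Rnh1. With library totals it was -0.14, -0.21, -0.22, -0.54 and 0.72 in the same order. The part of this shared factor in the pair correlations was not tested.

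The genes whose pattern over the 8 libraries was most like that of Ang4, among 6780 genes with a mean of at least 10 CPM, were Dynlt3 (r = 0.98), C4bp (0.97), Cyp2c68 (0.96), Klhdc8a (0.96) and H2aj (0.96). With library totals as the scaling C4bp (r = 0.82) and Cyp2c68 (0.77) were still among the 5 most alike. For Rnh1 they were Map2k2 (r = 0.97), Cope (0.95), Trappc1 (0.94), Edf1 (0.94) and BC031181 (0.94), of which Cope (0.99) was also the most alike with library totals. These correlations describe 8 libraries that share their scaling factors.

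The rest of the RNase A superfamily was at very low counts in these cells. Of 15 further members listed, 14 were in the table and 13 of these stayed under 10 counts in every library, among them the eosinophil-associated ribonucleases, with 10 genes at 0 counts throughout. The 5 eosinophil markers summed to 0.215 to 2.25 CPM, with Ccr3, Prg2 and Il5ra at 0. Ang2, a close relative of Ang, was the only member tested, and its level was 0.992 ± 0.406 CPM in the water group and 0.926 ± 0.425 CPM in the zinc group (log2 fold change -0.10, SE 0.47).

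Of 8 genes for angiogenin receptors and tRNA modification, all were tested and 0 were past the threshold of edgeR (0 at an unadjusted p below 0.05, and 0 by DESeq2 and limma-voom), with a median log2 fold change of -0.06 against 0.01 over all genes. Plxnb2, which encodes a receptor of angiogenin and was named after its values were seen, had 116 ± 8.16 CPM with water and 112 ± 7.04 CPM with zinc. The 3 with the smallest p were Ybx1, whose protein binds tRNA fragments (log2 fold change 0.22, SE 0.14), the tRNA demethylase gene Alkbh1 (-0.33, SE 0.22) and the tRNA methyltransferase gene Trdmt1 (-0.26, SE 0.27), each with an edgeR adjusted p of 0.998.

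Among 12 ribonucleases of other families, 9 were tested, 0 rose and 1 fell, with a median log2 fold change of -0.03. Over all 11988 genes tested, 0.025% rose and 0.0584% fell, with a median of 0.01. This list was chosen with earlier results of these data known, so that its count is not a result about the list. The one that fell was Zc3h12a, which encodes Regnase-1, an enzyme that cuts inflammatory mRNAs, with 15.8, 17.4, 18.6 and 13.7 CPM in the 4 water libraries and 6.77, 7.00, 5.45 and 7.10 CPM in the 4 zinc libraries (log2 fold change -1.32, SE 0.16, adjusted p = 0.0022 by edgeR). For Elac2, which trims the 3′ ends of tRNA precursors, the log2 estimate was 0.15 (SE 0.14) with an adjusted p of 0.998 by edgeR. Rnaset2a and Rnaset2b, whose products are usually widespread acid ribonucleases, stayed under 10 counts, and only 72.7% and 56.9% of their windows of 75 bases occurred in no other gene.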

How the data were processed

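Per the labels, total RNA of sorted Paneth cells was isolated with an Aurum kit and made into TruSeq stranded mRNA libraries, and the submitters' processing notes name FastQC 0.12.0, STAR 2.7.0a, DESeq2 and the build mm39. The authors deposited raw counts of reads for each Ensembl gene ID. The sources used here do not give the counting program, its strand setting or its treatment of shared reads.

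Gene IDs were matched to GENCODE M39 on GRCm39 (54749 of 55414, at least 99.99% of counts). The test of zinc against water used edgeR 4.0.16 (R 4.3.3, default filter with minimum count 10, TMM, robust quasi-likelihood F test, treatment only), with Benjamini-Hochberg adjustment over 11988 genes. The filter kept 5 of the 7 genes. Alternatives were RLE size factors, library totals, DESeq2 1.42.0, limma-voom (limma 3.58.1), other filters, Defa genes left out, a replicate block and each library left out. TPM used merged exon lengths. Correlations used log2 CPM (prior count 2) and all 40320 permutations in scipy 1.17.1, and sequences were aligned with Biopython 1.88. The edgeR, DESeq2 and limma-voom steps were tested on simulated counts. Libraries had no molecular identifiers, so that the Wilson intervals of shares and the limits of detection cover counting error only. The intervals of the log2 fold changes come from the edgeR fit and include the variation between libraries.

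Named were the 7 genes, of each further list any gene past the threshold and the 3 with the smallest p, and the 5 genes most like Ang4 and Rnh1. A gene that this rule names is not reported here. The members and lists were chosen with earlier results of these data known. Libraries within a group all differed by more than sampling noise, and each counted as 1 replicate.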

Additional observations from a re-analysis of the deposited data

Results flagged for a closer look

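Of 48 groups of 4 libraries examined for a value far from the other 3, 2 stood out, and chance flags about 1 group in 20. Rnase1 took 0.109% of counts in zinc replicate 3 and 0.0440% to 0.0525% in the other 3 zinc libraries, so that the gap made up 0.870 of the whole range, past Dixon's 95% critical value. In CPM with TMM scaling the same library did not pass this value. The tRNA fragment-binding protein gene Ybx1 reached 318 CPM in water replicate 4 and 211 to 222 CPM in the other 3 water libraries, with the gap at 0.897 of the range, which was 0.722 and so not past the value with library totals as the scaling.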

How the results depend on the processing

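None of the 5 tested genes passed the threshold under any of 16 alternatives, and outside the runs with a library left out the sign of all 5 estimates stayed negative. The number of genes past the threshold over the whole table, 3 higher and 7 lower with zinc, moved with the method: 8 higher and 26 lower by DESeq2, and 11 and 55 without a low-count filter (20836 genes). With a library left out it ranged from 0 to 5 higher and from 1 to 12 lower. It was 0 higher and 1 lower without water replicate 2, 1 higher without water replicate 1, 2 lower without water replicate 3, 1 lower without zinc replicate 2, 5 higher without zinc replicate 1 and 12 lower without zinc replicate 4. The cause was not tested.

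Deviations from the group means of same-numbered libraries correlated at r = 0.23, 0.00, 0.13 and 0.26 over all genes for numbers 1 to 4. The rule for taking the numbers as pairs asked for r above 0.1 at every number and so was missed at number 2 alone, and 3 of 4 libraries of each group correlated best with their own number, a hint from the data that the labels do not settle. TMM factors and coding Defa shares were close between same-numbered libraries at every number, number 2 included. The intervals and permutation tests of the report treat the libraries as unpaired. With the replicate number as a block, 6 genes were higher and 26 lower, and the SE of Ang4 was 0.11, of Rnase1 0.15, of Rnase4 0.10, of Ang 0.10 and of Rnh1 0.09, with no call among them. Ang5 and Ang6 could not be compared at this depth.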
